A study of Homo sapiens with 24 samples.

Results

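The genes described here are 52 genes of the G1/S transition and of DNA replication, chosen by symbol from the 18889 gene IDs of the deposited expression table. All 52 symbols were listed once, and all 52 passed the filter on low values in each cell line. They were grouped by role into E2F activators, atypical E2F repressors, cyclin E kinase genes, origin licensing factors, the MCM helicase, factors of helicase activation, the PCNA clamp and its loader, polymerases, maturation and chromatin factors, fork factors, and FAM111B on its own. Their RNA was measured by RNA-Seq in 24 cultures of 3 human estrogen receptor-positive breast cancer cell lines, and values given for the lines in a row follow the order MDA-MB-175, then ZR-75-30, then HCC1500. The medium held 5 mM glucose (low glucose, the control) or 25 mM glucose (high glucose, a model of hyperglycemia) over 48 hours, with 4 cultures in each of 6 groups. According to the study's methods, all cells were first conditioned in low glucose and the glucose media held no serum. The labels do not say whether the 4 cultures of a group came from separate passages or days, so p-values measure the spread between these cultures only.

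A cell decides to copy its genome late in G1, when cyclin-dependent kinases inactivate the RB protein and the E2F transcription factors are released. E2F factors bind short GC-rich sites in the promoters of cyclin E, of origin licensing genes, of the MCM helicase and of polymerases. In G1 the origin recognition complex, CDC6 and CDT1 load the MCM helicase on DNA, and in S phase the kinases CDK2 and CDC7 convert it, with CDC45 and the GINS complex, into the moving replication fork.

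Values below are the deposited normalized read counts, each a whole number of reads divided by a single factor per sample. Recovered reads ran from 9140024 to 17998819 per sample, and 3 reads, the floor of detection, corresponded to normalized counts between 0.953 and 2.29. In HCC1500 the depths of low glucose (13190982 to 17998819) and high glucose (9423472 to 12140912) did not overlap. The luminal markers ESR1, GATA3, FOXA1 and EPCAM were at 255 or more in every culture, and KRT8, KRT18 and KRT19 at 2486 or more. The epithelial adhesion gene CDH1 was at 49.0 at its lowest (ZR-75-30). The sum of these 8 markers was 49040 to 53680 with low and 34940 to 40810 with high glucose in ZR-75-30. It was 54270 to 64550 and 57750 to 62590 in MDA-MB-175, and 32480 to 34200 and 30780 to 51030 in HCC1500. PTPRC, CD3E and PECAM1 were not listed in the table. Of the markers of other cell types, 4 were listed, the stromal genes COL1A1, COL3A1, LUM and ACTA2. COL1A1 ran from 67.1 to 256 over the cultures, COL3A1 from 0 to 22.9, LUM from 0 to 67.8 and ACTA2 from 4.43 to 45.4. The sum of the 4 was 132 to 148 with low and 174 to 198.5 with high glucose in MDA-MB-175, where mean LUM was 21.9 and 58.7. It was 106 to 123 and 105 to 125 in ZR-75-30, where mean ACTA2 was 6.57 and 26.7, and 271 to 299.5 and 237 to 299 in HCC1500. The part of these transcripts in the results was not tested. TXNIP, a gene that glucose induces, rose in each line at high glucose by a log2 change of 0.39 in MDA-MB-175, 0.76 (ZR-75-30) and 1.02 (HCC1500). ARRDC4, a related arrestin gene with the same kind of control, had log2 changes of 0.41, 0.41 and 0.39, with adjusted p-values of 0.00144, 0.00467 and 0.0704. Without the culture HG3 described next, the HCC1500 change was 0.37 (adjusted p = 0.01), and that of TXNIP 0.99. One high glucose culture of HCC1500, replicate 3 (HG3), stood apart from the rest of its group, with a table total of 7319781 against 5559394 to 5716906 in the other 7 cultures of the line. HCC1500 results are therefore given with and without HG3, and the calls of HCC1500 with HG3 rest on a wider spread. Log2 changes are high minus low glucose ± SE, and levels are mean ± SD with n = 4, or n = 3 for high glucose without HG3.

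The promoters of the members carried E2F motifs more often than promoters at large. The list holds groups of genes that E2F factors are known to bind, so this difference is partly set by the choice of members. The genes compared were not limited to those of the expression table or matched for base content. In windows from 250 bases before to 50 bases after the RefSeq transcription start, at least 1 match on either strand to TTTCCCGC, TTTCGCGC, TTTGCCGC or TTTGGCGC was found in 26 of the 44 members with a window (59.1%), against 1090 of the 27305 genes with a window (3.99%). The CCAAT box was found in 59.1% of the members and 39.7% of all genes, and the letters TTTGAA of the mitotic CHR element in 6.82% and 18.2%. Matches on the opposite strand of TTTGGCGC and TTTCGCGC can overlap, as they do in MCM6. The 100 bases upstream of the start are shown for 8 members, in lower case with E2F matches in capitals (GRCh38.p14, RefSeq), because they show the shared motif at different distances and on either strand in genes whose responses differed.
E2F1 (chr20:33686386-33686485, minus strand): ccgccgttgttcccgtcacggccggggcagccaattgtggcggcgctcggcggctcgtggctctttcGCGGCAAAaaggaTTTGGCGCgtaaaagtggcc
E2F2 (chr1:23531234-23531333, minus strand): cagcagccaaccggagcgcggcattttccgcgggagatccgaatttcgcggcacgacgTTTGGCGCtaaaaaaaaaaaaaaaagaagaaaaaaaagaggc
CDC25A (chr3:48188418-48188517, minus strand): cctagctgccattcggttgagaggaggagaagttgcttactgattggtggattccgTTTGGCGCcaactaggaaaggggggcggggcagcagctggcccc
CDT1 (chr16:88803689-88803788, plus strand): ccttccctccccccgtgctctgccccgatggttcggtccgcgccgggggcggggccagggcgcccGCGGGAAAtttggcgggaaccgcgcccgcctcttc
DTL (chr1:212035648-212035747, plus strand): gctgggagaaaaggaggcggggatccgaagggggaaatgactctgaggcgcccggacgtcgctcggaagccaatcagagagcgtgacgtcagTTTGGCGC
MCM6 (chr2:135876444-135876543, minus strand): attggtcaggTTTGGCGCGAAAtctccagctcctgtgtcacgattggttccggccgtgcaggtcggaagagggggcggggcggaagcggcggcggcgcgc
PCNA (chr20:5126623-5126722, minus strand): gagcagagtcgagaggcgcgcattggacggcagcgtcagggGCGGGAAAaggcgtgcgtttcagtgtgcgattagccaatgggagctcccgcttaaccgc
UHRF1 (chr19:4909401-4909500, plus strand): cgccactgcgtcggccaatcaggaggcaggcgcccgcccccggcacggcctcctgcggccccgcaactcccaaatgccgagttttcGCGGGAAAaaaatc
In E2F1 the motifs began 33 and 20 bases before the start, in CDC25A 44 bases before it, in PCNA 59 bases before it and in CDT1 35 bases before it. Members with a motif had a median log2 change of -1.11 in ZR-75-30 and members without a motif -0.78, while the medians were -0.27 and -0.28 in MDA-MB-175. In HCC1500 they were -0.71 and -0.79 with HG3, and -0.81 and -0.81 without it. These medians are descriptions and were not tested.

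The first question was whether high glucose changed the RNA of the replication genes in each line. In all 3 lines the members were lower at high glucose, least in MDA-MB-175, by a median of about 0.3 log2 units, and most in ZR-75-30. In ZR-75-30, 51 of 52 members fell, where 22.7% of all tested genes were called lower, and CDT1 was the exception. In MDA-MB-175, 37 members fell against 13.7% of all genes. In HCC1500, 41 members fell against 13% of all genes, and without HG3 51 fell against 37.7%. Leaving out any other single culture of HCC1500 cost 2 to 5 of the 41 calls. No member was called higher in any line by limma, none had an unadjusted p under 0.05 in that direction, and edgeR and DESeq2 on the recovered reads called 0 members higher too. The median log2 change of the members was -0.30 in the first line, -0.97 for ZR-75-30, -0.76 for HCC1500 and -0.82 for HCC1500 without HG3. Medians over all genes tested were -0.02, 0.01, -0.06 and -0.12. With median-of-ratios factors the last of these was -0.01 and that of the members -0.70. Of all genes called in HCC1500, 63.6% were lower on the deposited scale and 51.1% with median-of-ratios factors, and without HG3 64.3% and 49.5%. In bulk RNA a smaller share of cells in S phase and less of each transcript per cell cannot be told apart.

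Single cultures showed the same separation. High glucose values lay below every low glucose value for 51 members in ZR-75-30 (21.1% of all genes), 35 in MDA-MB-175 (13.9%), 42 in HCC1500 (18.7%) and 52 in HCC1500 without HG3 (37.1%). The mean log2 level over the 52 members lay between 7.96 and 7.98 in the low glucose cultures of ZR-75-30 and between 6.92 and 6.999 in the high glucose ones. MDA-MB-175 spanned 7.99 to 8.04 with low and 7.69 to 7.76 with high glucose. HCC1500 spanned 7.83 to 7.85 with low glucose, and its high glucose cultures had 6.98 to 6.998, apart from HG3 with 7.21. In none of the lines did the ranges of the conditions overlap. Called lower in all 3 lines were 31 members, or 36 without HG3, against 3.32% and 6.74% of all genes tested in every line. A log2 change of at least 0.5 was passed by 48 of the called members in ZR-75-30 (8.15% of all genes), 40 in HCC1500 (10.1%), 47 in HCC1500 without HG3 (18%) and 3 in MDA-MB-175 (2.92%), which were E2F7, CCNE2 and GINS2.

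**Figure D1:**
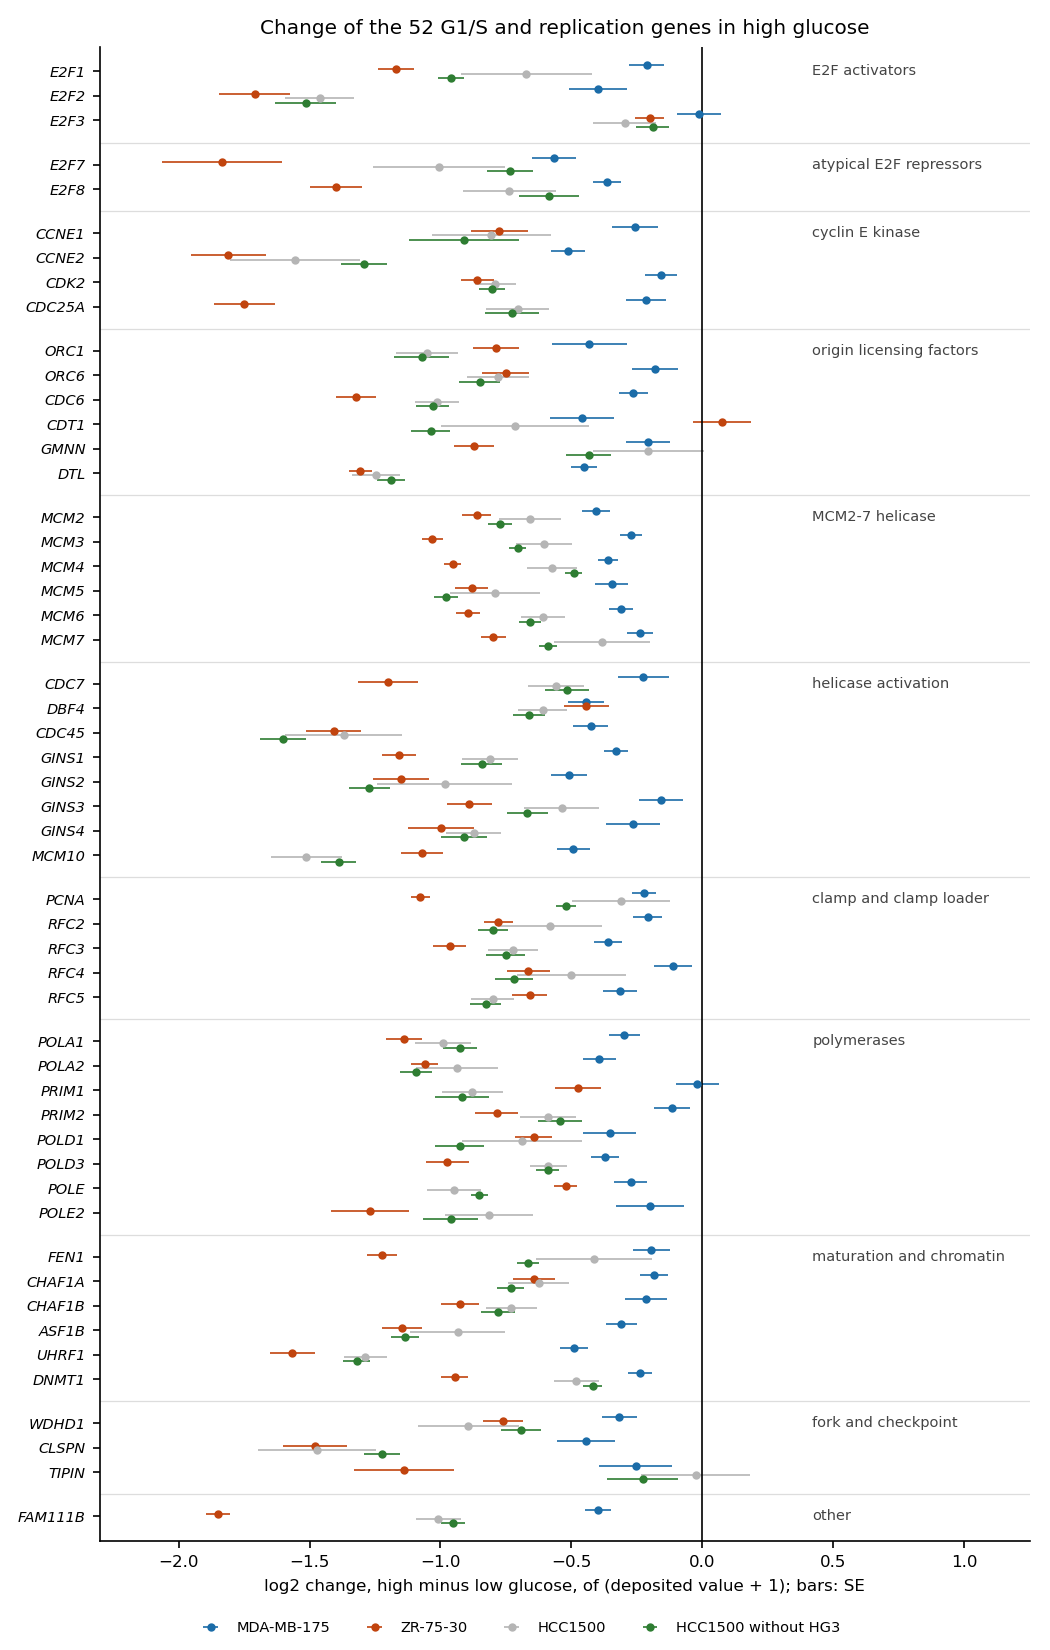
Log2 change at high glucose (x axis, log2 of deposited value + 1, bars are SE) of the 52 members (y axis, grouped by role) for the 3 lines and for HCC1500 without HG3. Every point except CDT1 in ZR-75-30 lies left of 0, and the MDA-MB-175 points lie between -0.57 and -0.01.

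E2F activators drive the transcription of the other groups. In MDA-MB-175, E2F1 stood at 468, 427, 468 and 408 in the 4 low glucose cultures and at 435, 351, 369 and 375 at high glucose. These groups overlapped, with 1 high glucose culture among the low glucose values. Its log2 change was -0.21 ± 0.07 (adjusted p = 0.0286), and without any of 5 cultures (low glucose 1 or 3, high glucose 2, 3 or 4) the adjusted p was between 0.0713 and 0.104. In ZR-75-30, E2F1 fell from 340.2, 339.5, 325 and 368 to 154, 159, 163 and 132, a log2 change of -1.17 ± 0.07 (adjusted p = 1.63e-10). The highest of its high glucose values was under the lowest of the others. HCC1500 had 399.8, 406, 388 and 388 at low glucose and 202, 190.04 and 217 in 3 high glucose cultures, but 451 in HG3, above every low glucose culture. The log2 change was -0.67 ± 0.25 (adjusted p = 0.095) with HG3 and -0.96 ± 0.05 (adjusted p = 1.66e-11) without it.

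Of the other activators, E2F2 had the largest changes. MDA-MB-175 had a mean of 67.4 ± 4.07 with low and 51.02 ± 5.62 with high glucose, ZR-75-30 111 ± 12.7 and 33.4 ± 6.16, and HCC1500 82.2 ± 6.21 and 29.3 ± 3.76, a fall in each (log2 change -0.40 ± 0.11, -1.71 ± 0.14 and -1.46 ± 0.13 (-1.51 ± 0.12 without HG3)). HG3, at 32.7, lay with the other high glucose cultures for this gene. E2F3 moved least of the 52 on average. It fell in ZR-75-30 by 0.20 on the log2 scale, from 316 ± 19.02 to 275 ± 5.99. In MDA-MB-175 it stood at 168 ± 16.9 and 166 ± 13.2, a log2 change of -0.01 whose sign turned under median-of-ratios scaling (0.01) and in edgeR (0.02). In HCC1500 its change was -0.30 ± 0.12 (adjusted p = 0.117), and -0.19 ± 0.06 (adjusted p = 0.0131) without HG3, where median-of-ratios scaling gave -0.07 and an adjusted p of 0.348.

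The atypical repressors E2F7 and E2F8, which shut E2F targets off later in S phase and are E2F targets themselves, were called lower in every line. Their calls in MDA-MB-175 and HCC1500 did not hold under all alternatives. With limma's spread estimated over all 24 cultures, HG3 included, the adjusted p in MDA-MB-175 was 0.0874 for E2F7 and 0.0537 for E2F8. That fit lost 17 of the 37 member calls of MDA-MB-175, so this limit was not particular to E2F7 and E2F8. The others lost were E2F1, CCNE1, CCNE2, CDT1, MCM5, MCM7, CDC45, GINS2, PCNA, RFC2, POLD1, CHAF1A, ASF1B, WDHD1 and CLSPN. E2F7 counted 42.7, 32.4, 33.04 and 27.5 at low and 13.5, 7.43, 8.07 and 6.85 at high glucose in ZR-75-30, the lowest levels of any member there at high glucose. The log2 changes were -1.83 ± 0.23 (adjusted p = 2.68e-06) in that line and -0.57 ± 0.08 (adjusted p = 0.000101) in MDA-MB-175, the largest fall of a member in MDA-MB-175. In HCC1500, E2F7 fell by 1.01 on the log2 scale (adjusted p = 0.0231) and by 0.73 without HG3 (adjusted p = 9.71e-07). With HG3 kept, leaving out any of the 4 low glucose cultures put the adjusted p between 0.0573 and 0.0709, and median-of-ratios scaling and edgeR at 0.0556 and 0.0512. E2F8 fell by 0.36, 1.40 and 0.74 on the log2 scale in the 3 lines. In HCC1500 the adjusted p of E2F8 was 0.0199. It was between 0.0521 and 0.0652 without low glucose culture 1, 2 or 3 or high glucose culture 4, 0.0572 with median-of-ratios scaling, 0.0505 in edgeR and 0.000253 without HG3.

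Cyclin E and its kinase CDK2 carry cells into S phase, and the phosphatase CDC25A activates CDK2. CCNE2, which encodes cyclin E2, had among the largest falls in all 3 lines. It stood at 222, 227, 209.5 and 242 and 156, 148, 167 and 157 in the low and high glucose cultures of MDA-MB-175. The values were 126, 161, 119.6 and 163 against 36.97, 39.2, 31.9 and 52.8 in ZR-75-30. HCC1500 counted 183, 166, 173 and 176 against 59.6, 75.1 and 78.9, and 33.4 in HG3. No group overlapped its control. The log2 changes were -0.51 ± 0.07 (adjusted p = 2.47e-05), -1.81 ± 0.14 (adjusted p = 7.07e-09) and -1.56 ± 0.25 (adjusted p = 0.00309), and without HG3 -1.29 ± 0.09 (adjusted p = 5.75e-10). Over all its annotated transcripts, CCNE2 shares 1629 exon bases with other coding genes, so their reads may enter its count.

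CDK2 itself fell from 264 ± 4.77 to 145 ± 9.47 in ZR-75-30 and from 601 ± 16.5 to 348 ± 24.7 in HCC1500, log2 changes of -0.86 ± 0.06 and -0.79 ± 0.08 (-0.80 ± 0.05 without HG3). In MDA-MB-175 it stood at 273 ± 13.8 and 245 ± 14.6 and did not pass the test (adjusted p = 0.0726). CDC25A had very different falls between lines. It counted 138, 145, 138 and 136 at low and 41.1, 32.4, 49.3 and 41.8 at high glucose in ZR-75-30, a log2 change of -1.75 ± 0.12 (adjusted p = 7.3e-10). MDA-MB-175 had a similar level at low glucose, 152, 143, 128 and 136, but had 126, 124, 114 and 116 at high glucose. There the groups did not overlap and the log2 change was -0.21 ± 0.08 with an adjusted p of 0.0504, or 0.0351 and 0.0429 without low glucose culture 3 or 4. In HCC1500 it fell from 91.3 ± 7.96 to 55.7 ± 5.43, log2 change -0.71 ± 0.12 (-0.73 ± 0.10 without HG3). CCNE1, the other cyclin E gene, fell in each line, by 0.26, 0.77 and 0.80 on the log2 scale (0.91 in HCC1500 without HG3), and is named after its values were seen. In MDA-MB-175 its adjusted p was 0.0424, and the call was lost in edgeR and DESeq2 and without any of 5 single cultures. In HCC1500 the adjusted p was 0.037, and the call was lost without any of 6 single cultures (low glucose 1 to 4, high glucose 1 or 4) and held without HG3 (0.00113).

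**Figure D2:**
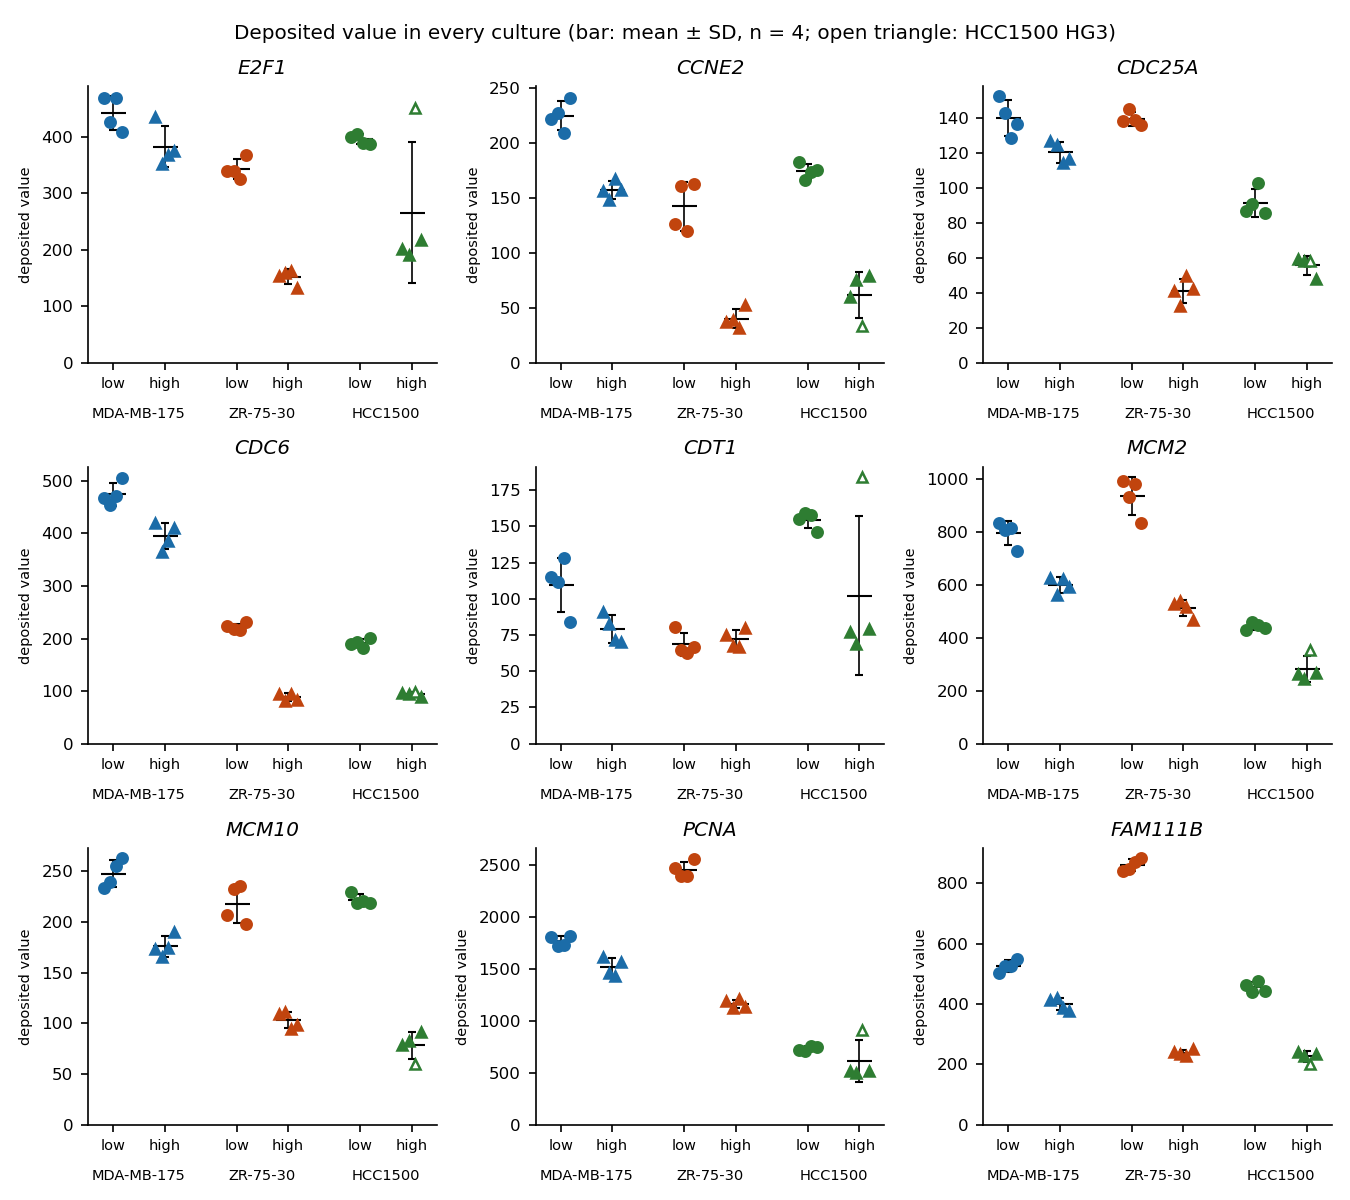
Deposited value (y axis, linear from 0) of 9 members in each of the 24 cultures, circles for low and triangles for high glucose, with the mean ± SD of 4 cultures as bars and HCC1500 HG3 as an open triangle. CDT1 is the member whose ZR-75-30 groups overlap, and HG3 lies above the low glucose cultures for E2F1, CDT1 and PCNA.

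Of the 6 origin licensing factors 4 fell in MDA-MB-175 and 5 in ZR-75-30, where 13.7% and 22.7% of all genes were called lower. HCC1500 had 4 with HG3 (13% of all genes) and 6 without it (37.7% of all genes). The same shares of all genes stand beside the counts of the groups that follow. CDC6, which helps load the helicase, counted 467, 455, 470.3 and 505 at low and 421, 365, 386 and 411 at high glucose in MDA-MB-175. In ZR-75-30 it counted 223, 217, 216 and 231 and 94.3, 81.01, 95.2 and 82.2, and in HCC1500 189, 193, 183 and 201 and 96.2, 94.03, 98.02 and 89.5. No high glucose culture reached a low glucose culture of its line. The log2 changes were -0.26 ± 0.06 (adjusted p = 0.00214), -1.32 ± 0.08 (adjusted p = 1.15e-10) and -1.01 ± 0.08 (adjusted p = 0.000143), and HG3 lay with its group for CDC6, so that the change without it was -1.03 ± 0.06. DTL is the substrate receptor through which CDT1 is degraded in S phase. Its means fell from 539 ± 17.99 to 394 ± 20.02 (MDA-MB-175), 726 ± 22.6 to 293 ± 9.19 (ZR-75-30) and 347 ± 16.2 to 146 ± 12.3 (HCC1500). Its log2 changes of -0.45 ± 0.05, -1.31 ± 0.04 and -1.25 ± 0.09 (-1.19 ± 0.05 without HG3) had the largest mean size of the licensing group.

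CDT1, the other helicase loader, was called lower in MDA-MB-175 and, once HG3 was left out, in HCC1500. In ZR-75-30 its values were 80.3, 64.8, 62.7 and 66.4 at low and 74.99, 67.5, 66.7 and 79.5 at high glucose. The groups overlapped and the log2 change was 0.08 ± 0.11 (adjusted p = 0.612), which made CDT1 the only member not called lower in that line. In MDA-MB-175 it fell from 115, 112, 128 and 83.9 to 90.7, 82.9, 71.8 and 70.4, log2 change -0.46 ± 0.12 (adjusted p = 0.0109), with 1 low glucose culture inside the high glucose range. That call was lost with the spread over all 24 cultures. In HCC1500 the low glucose cultures had 155, 159, 158 and 146, 3 high glucose cultures had 77.3, 68.7 and 78.9 and HG3 had 184. The change was -0.72 ± 0.28 (adjusted p = 0.112) with HG3 and -1.04 ± 0.07 (adjusted p = 1.31e-09) without it. GMNN, which encodes geminin, the inhibitor of CDT1, did fall in ZR-75-30, from 208 ± 13.5 to 113 ± 8.88 (log2 change -0.87 ± 0.08), and is named here after its values were seen. Log2 changes of the 6 licensing genes ran from -0.46 to -0.18 in MDA-MB-175, -1.32 to 0.08 in ZR-75-30, and -1.19 to -0.43 for HCC1500 without HG3. ORC6 and GMNN were the members of the group not called in MDA-MB-175.

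All 6 MCM helicase genes fell in ZR-75-30 and in MDA-MB-175, and in these lines the group had the narrowest range of change of the groups with more than 1 member. Log2 changes ran from -1.03 to -0.80 in ZR-75-30 and from -0.41 to -0.24 in MDA-MB-175. In HCC1500 5 of 6 fell, and 6 of 6 without HG3. MCM2 counted 831, 806, 815 and 728 at low and 626, 562, 620.3 and 590.4 at high glucose in MDA-MB-175 (log2 change -0.41 ± 0.05, adjusted p = 2.35e-05). ZR-75-30 had 992, 929.8, 980.4 and 834 against 526, 540.1, 517 and 469, a change of -0.86 ± 0.06 (adjusted p = 5.99e-10). HCC1500 had 428, 458, 449 and 437 against 263, 246 and 268, and 355 in HG3. No group overlapped its control, and the HCC1500 change was -0.66 ± 0.12 (adjusted p = 0.00555), or -0.77 ± 0.05 without HG3. MCM5 had the largest mean change of the 6 (-0.35, -0.88 and -0.79, or -0.98 without HG3) and MCM7 the smallest (-0.24, -0.80 and -0.38, or -0.59 without HG3). For MCM7, HG3 at 1159.9 exceeded every low glucose culture of HCC1500, and the adjusted p was 0.184 with it and 6.84e-11 without it.

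The factors that turn the loaded helicase into a fork all fell in ZR-75-30 and in HCC1500 (8 of 8 in each), and 5 of 8 fell in MDA-MB-175. In HCC1500 the calls of GINS2 and GINS3 (adjusted p = 0.0276 and 0.0291) were lost when any single culture other than HG3 was left out, and both held without HG3. MCM10, which acts at this step, counted 234, 239, 255 and 263 and 173, 166, 175 and 189.8 in low and high glucose cultures of MDA-MB-175. ZR-75-30 had 207, 233, 235 and 198 against 109, 111, 94.3 and 98.7. In HCC1500 it dropped further, from 229.9, 219, 221 and 219 to 78.5, 83.1, 59.4 and 91.9, with no overlap in any line. The log2 changes were -0.49 ± 0.06 (adjusted p = 2.94e-05), -1.07 ± 0.08 (adjusted p = 3.69e-09) and -1.51 ± 0.14 (adjusted p = 0.000183), and -1.39 ± 0.07 in HCC1500 without HG3. CDC45, part of the active helicase, fell from 152 ± 11.5 to 57.1 ± 8.08 in ZR-75-30, and its log2 changes were -0.43 ± 0.07, -1.41 ± 0.10 and -1.37 ± 0.22. In HCC1500 without HG3 the fall of CDC45 was the largest of any member (-1.60 ± 0.09). The 8 genes of the group, CDC7, DBF4, CDC45, MCM10 and the 4 GINS genes, had log2 changes of -0.51 to -0.16 in MDA-MB-175, -1.41 to -0.44 in ZR-75-30, and -1.60 to -0.52 for HCC1500 without HG3. CDC7, GINS3 and GINS4 were not called in MDA-MB-175. With the spread over all 24 cultures, CDC45 (limma, adjusted p = 0.0883) and GINS2 lost their calls there too. DBF4, the regulatory subunit of the CDC7 kinase, had nearly equal changes in MDA-MB-175 and ZR-75-30, with log2 changes of -0.44 ± 0.07, -0.44 ± 0.09 and -0.61 ± 0.09 (-0.66 ± 0.06 without HG3) over the lines.

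PCNA, the sliding clamp that holds polymerases on DNA, fell in the lines other than HCC1500, where the call hung on HG3 and scaling. PCNA counted 1809, 1721, 1728 and 1812 at low and 1612, 1464, 1427 and 1564 at high glucose in MDA-MB-175 (log2 change -0.22 ± 0.04, adjusted p = 0.00155). In ZR-75-30 it fell from 2471, 2391, 2395 and 2557 to 1186, 1121, 1207 and 1138, a change of -1.08 ± 0.04 (adjusted p = 1.54e-13). Neither pair of groups overlapped. HCC1500 had 714, 709.6, 755 and 744 at low glucose, 515, 494 and 518 in 3 high glucose cultures and 914 in HG3. With HG3 the change did not pass the test, at -0.31 ± 0.19 (adjusted p = 0.289), and without it PCNA fell by 0.52 on the log2 scale (adjusted p = 9.61e-10). With HG3 kept and CPM scaling it passed, at -0.38 (limma, adjusted p = 0.038). Over PCNA and the 4 RFC genes the log2 changes were -0.36 to -0.11 in MDA-MB-175, -1.08 to -0.66 in ZR-75-30, and -0.83 to -0.52 for HCC1500 without HG3. Of the clamp loader genes, RFC3 had the largest mean change (-0.36, -0.97 and -0.72, or -0.75 without HG3) and passed in each line. RFC4 had the smallest, with -0.11 ± 0.07 (adjusted p = 0.299) and -0.66 ± 0.08 (adjusted p = 2.57e-06) in the first lines and -0.50 ± 0.21 (adjusted p = 0.125) in HCC1500, where HG3 at 281 exceeded the low glucose cultures and the change without it was -0.72 ± 0.07 (adjusted p = 1.11e-07).

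Polymerase genes fell in ZR-75-30 (8 of 8), in HCC1500 (7 of 8, and 8 of 8 without HG3) and in part in MDA-MB-175 (5 of 8). Log2 changes of the 8 genes were -0.39 to -0.02 in MDA-MB-175, -1.27 to -0.47 in ZR-75-30, and -1.09 to -0.54 for HCC1500 without HG3. PRIM1, PRIM2 and POLE2 were not called in MDA-MB-175. POLA1, the catalytic subunit of the polymerase that starts each strand, had means of 248 ± 11.4 and 201 ± 7.98 (low and high glucose) in MDA-MB-175, 269 ± 8.21 and 122 ± 9.46 in ZR-75-30, and 313 ± 24.9 and 157 ± 16.5 for HCC1500. The log2 changes were -0.30 ± 0.06, -1.14 ± 0.07 and -0.99 ± 0.11 (-0.92 ± 0.07 without HG3), each past the test. PRIM1, the primase subunit that makes the RNA primer, had 96.7, 89.1, 97.4 and 91.6 at low and 92.8, 95.99, 85.5 and 95.7 at high glucose in MDA-MB-175. These groups overlapped and the log2 change was -0.02 ± 0.08 (adjusted p = 0.896), with a sign that turned under median-of-ratios scaling and without high glucose culture 3 (0.02). In the other lines PRIM1 fell, by 0.47 in ZR-75-30, 0.88 in HCC1500 and 0.92 in HCC1500 without HG3 on the log2 scale. Over all its annotated transcripts, PRIM1 shares 633 exon bases with other coding genes.

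Maturation and chromatin factors fell in 6 of 6 in ZR-75-30, in 5 of 6 in HCC1500 (6 of 6 without HG3) and in 4 of 6 in MDA-MB-175. The 6 genes, among them the flap nuclease gene FEN1 and the methyltransferase gene DNMT1, had log2 changes of -0.49 to -0.18 in MDA-MB-175, -1.57 to -0.64 in ZR-75-30, and -1.32 to -0.42 for HCC1500 without HG3. FEN1 and CHAF1B were not called in MDA-MB-175. UHRF1, which brings the methyltransferase DNMT1 to newly copied DNA, had the largest changes of this group. It counted 815, 799, 824 and 705 and 565, 558, 579 and 531 in low and high glucose cultures of MDA-MB-175. The counts were 396, 399.8, 415 and 365 and 139, 147, 142 and 105 in ZR-75-30, and 364, 390.05, 342 and 371 and 144, 147, 160.4 and 148 in HCC1500. The conditions did not overlap, and the log2 changes were -0.49 ± 0.05 (adjusted p = 4.25e-06), -1.57 ± 0.09 (adjusted p = 6.9e-11) and -1.29 ± 0.08 (adjusted p = 5.04e-05), or -1.32 ± 0.05 in HCC1500 without HG3. CHAF1A, a subunit of the histone chaperone that deposits histones behind the fork, changed least. Its log2 changes were -0.18 ± 0.05, -0.64 ± 0.08 and -0.62 ± 0.12 (-0.73 ± 0.05 without HG3), and in MDA-MB-175 the adjusted p of 0.0178 became 0.0606 or 0.0676 without high glucose culture 3 or 4.

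Among fork and checkpoint genes CLSPN fell in every line and TIPIN in ZR-75-30 only by the single-line tests. CLSPN encodes claspin, the adaptor that relays the replication stress signal to the kinase CHK1, and its means with low and high glucose were 93.9 ± 9.86 and 68.9 ± 8.84 in MDA-MB-175, 97.3 ± 8.23 and 34.4 ± 4.68 in ZR-75-30, and 214 ± 5.49 and 79.8 ± 23.9 for HCC1500. Its log2 changes were -0.44 ± 0.11, -1.48 ± 0.12 and -1.47 ± 0.22 (-1.22 ± 0.07 without HG3). WDHD1, the remaining gene of the group, was called lower in each line. In MDA-MB-175 the calls of CLSPN (limma, adjusted p = 0.101) and WDHD1 were lost with the spread over all 24 cultures. TIPIN, a component of the fork protection complex, had low counts. In ZR-75-30 they were 70.9, 67.7, 56.97 and 61.1 and 35.9, 17.6, 37.8 and 27.4, a log2 change of -1.14 ± 0.19 (adjusted p = 7.89e-05). In HCC1500 they were 34.96, 36.8, 32.98 and 39.2 at low glucose and 31.9, 32.8 and 27.2 in 3 high glucose cultures, with 54.2 in HG3. The change there was -0.03 ± 0.21 (adjusted p = 0.951), of positive sign under median-of-ratios scaling (0.03), and -0.23 ± 0.14 (adjusted p = 0.165) without HG3, where its groups did not overlap. In MDA-MB-175 the change of TIPIN was -0.25 ± 0.14 (adjusted p = 0.205).

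FAM111B, which encodes a serine protease-like protein and has no clear place in the replication machine, had the largest fall of the 52 in ZR-75-30. It counted 840.4, 848, 869.9 and 883 at low and 241, 236, 227 and 249 at high glucose, a log2 change of -1.85 ± 0.05 (adjusted p = 1.75e-15). MDA-MB-175 had 504, 525, 526 and 550.4 against 413, 419.8, 387 and 379, and HCC1500 463, 439, 476 and 443 against 242, 228, 200.5 and 233. The conditions were apart in each line, and the other log2 changes were -0.40 ± 0.05 (adjusted p = 2.19e-05) and -1.01 ± 0.09 (adjusted p = 0.000154), or -0.95 ± 0.05 in HCC1500 without HG3.

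The next question was whether the response differed between the lines. An F test over the 24 cultures found that it differed for 43 of the 52 members, or 50 without HG3, where 29.3% and 48.6% of all genes differed. The fall was larger in ZR-75-30 than in MDA-MB-175 for 41 members, against 5.54% of all genes called in that direction, and the opposite was called for 0. Without HG3, which enters the shared estimate of the spread, the numbers were 46 (12.6% of all genes) and 1, which was CDT1, with a difference of 0.54 (adjusted p = 0.0118). The fall was larger in HCC1500 than in MDA-MB-175 for 28 members, against 11.3% of all genes, and for 45 without HG3 (21.1%). Between HCC1500 and ZR-75-30 both directions occurred. The fall was smaller in HCC1500 for 17 members (9.99% of all genes) and larger for 4 (15.2% of all genes), which were CDT1, MCM10, PRIM1 and POLE. Without HG3 these counts were 19 (14.9%) and 4 (25.6%). The median difference in log2 change was -0.69 between ZR-75-30 and MDA-MB-175, -0.47 between HCC1500 and MDA-MB-175 and 0.20 between HCC1500 and ZR-75-30. Each pair of these comparisons shares a line, so their counts are not independent.

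Largest of all differences was that of CDC25A, whose log2 change in ZR-75-30 minus that in MDA-MB-175 was -1.54 ± 0.15 (adjusted p = 2.77e-07), and differed by 1.04 ± 0.15 between HCC1500 and ZR-75-30 (adjusted p = 1.23e-05). FAM111B followed, with -1.45 ± 0.08 between ZR-75-30 and MDA-MB-175. With HG3, E2F2 had the largest difference between HCC1500 and MDA-MB-175, -1.06 ± 0.18 (adjusted p = 0.000168). Without HG3 it was -1.12, and CDC45 had the largest (-1.18). TIPIN had the largest difference between HCC1500 and ZR-75-30 with HG3, 1.11 ± 0.29 (adjusted p = 0.00649). Without HG3 it was 0.91 (adjusted p = 0.00573), below CDT1 (-1.11), E2F7 (1.10) and CDC25A (1.02) in size. For MCM10 the order of the lines was another, with HCC1500 below ZR-75-30 (difference -0.44 ± 0.14, adjusted p = 0.0221). PRIM1 had the same order, with a difference of -0.40 ± 0.12. For CDT1 the F test gave an adjusted p of 0.0981 with HG3 and 1.72e-05 without it, and the HCC1500 minus ZR-75-30 difference was -0.79 ± 0.29 and -1.11.

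Differences were not shown for E2F3 and DBF4 with or without HG3. The F test of DBF4 gave an adjusted p of 0.44, and the difference between ZR-75-30 and MDA-MB-175 was 0.0024 with an SE of 0.12. Across the 52 members, Pearson's r was 0.416 and Spearman's rho 0.382 for MDA-MB-175 against ZR-75-30. MDA-MB-175 against HCC1500 without HG3 gave 0.564 and 0.513, and ZR-75-30 against HCC1500 without HG3 gave 0.370 and 0.318. These are descriptions across genes that share libraries, and genes are not independent replicates.

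**Figure D3:**
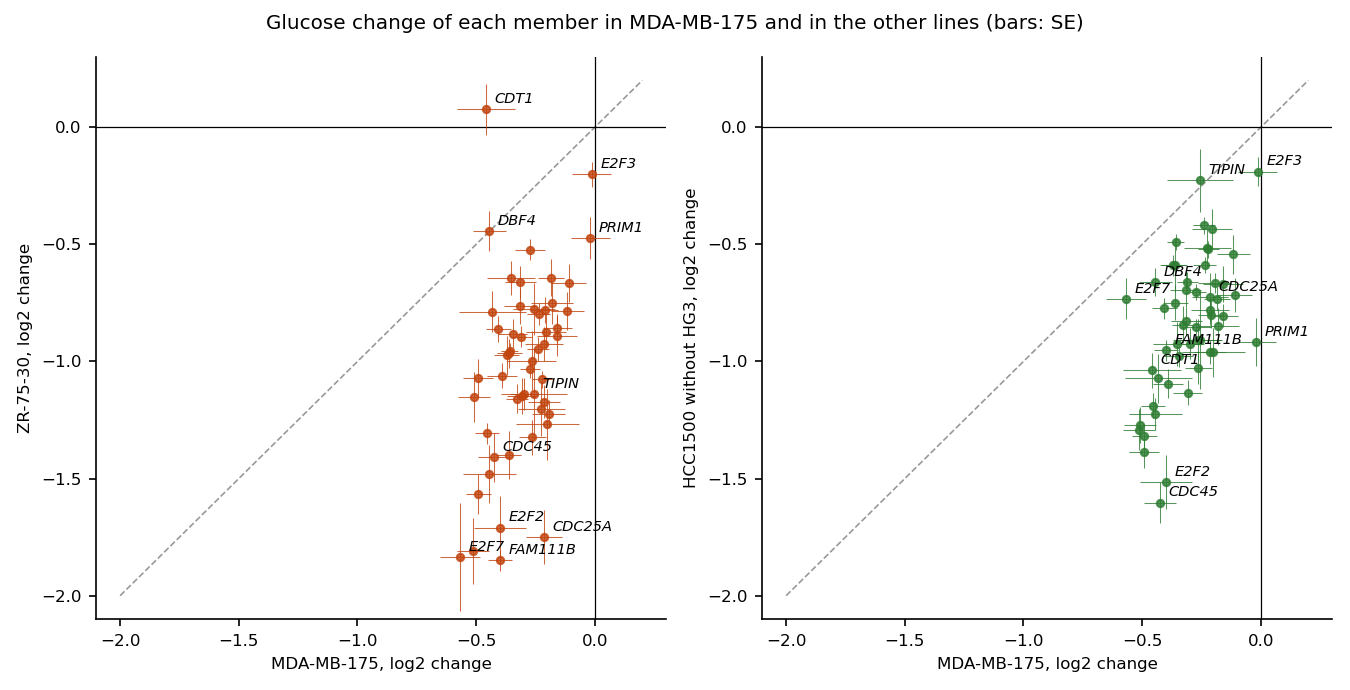
Log2 change of each of the 52 members in MDA-MB-175 (x axis) against ZR-75-30 (left) and HCC1500 without HG3 (right), with SE bars and a dashed line of equal change. All but CDT1 and DBF4 lie below the line on the left, and all but TIPIN lie below it on the right.

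In the main fit, the calls of 10 members in HCC1500 turned on HG3. With it, 11 members were not called, E2F1, E2F3, CDT1, GMNN, MCM7, PCNA, RFC2, RFC4, POLD1, FEN1 and TIPIN, and without it TIPIN alone was not. Some of these calls also turned on the processing. With HG3 kept, CPM scaling added 8 member calls, the spread over all 24 cultures 8 and DESeq2 3. Median-of-ratios factors and edgeR each added 2 and lost 2. The HG3 value lay above all 4 low glucose cultures for 9 members, within them for POLD1 and below them for the other 42. It was above the other 3 high glucose cultures for 31 members and below them for 15. The same positions were not counted over all genes, so nothing is read from these counts about the members. The deviation moved with transcript length. Among the 22 members with a canonical transcript under 3000 exonic bases the median log2 difference between HG3 and the other high glucose cultures was 0.80, and among the 29 longer members it was 0.07. CDT1 (2664 bases) differed by 1.29, FEN1 (2016 bases) by 1.01, CLSPN (8512 bases) by -0.99 and E2F7 (5725 bases) by -1.09. The Spearman correlation of the difference with length was -0.642 over 51 members with a length and -0.682 over 12934 genes, given as a description of this library. The part of transcript length in the HG3 values was not tested. Among the short members, CCNE2 (2674 bases) went the other way, by -1.06, and so did PRIM2 (1683 bases), by -0.19.

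**Figure D4:**
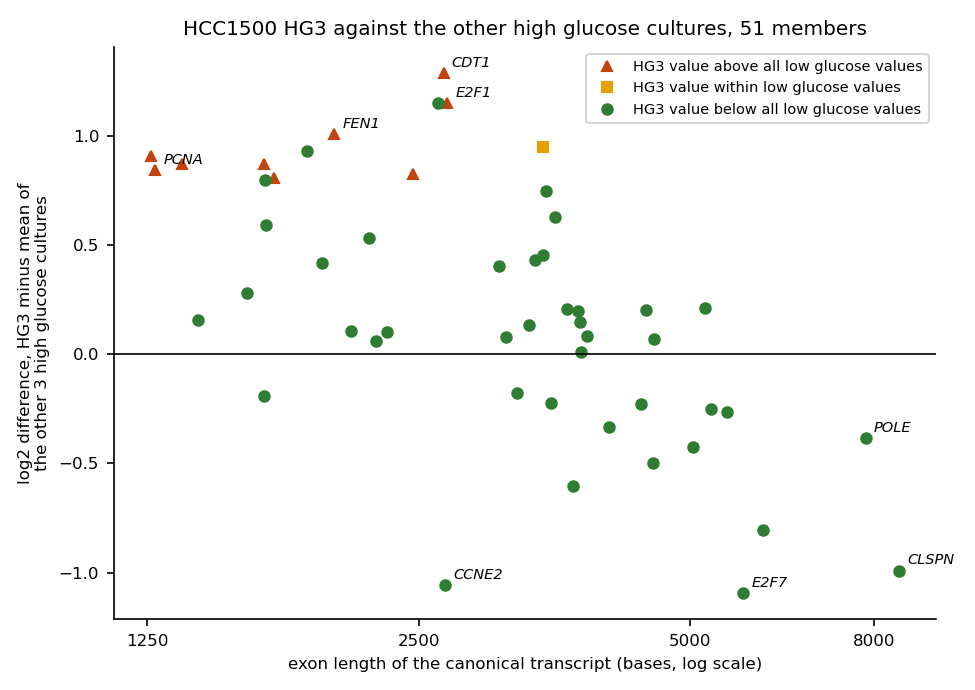
Log2 difference between HG3 and the mean of the other 3 high glucose cultures of HCC1500 (y axis) against canonical exon length (x axis, bases, log scale) for 51 members, with triangles for members whose HG3 value exceeds all low glucose values. Triangles sit at the short end, and CLSPN and E2F7 at the long end lie near -1.

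Other genes of the same pathway give the setting of these changes. Of 29 listed genes of other replication proteins, 20, 24 and 13 were called lower over the lines (23 in HCC1500 without HG3, with 3 higher), and their medians were -0.26, -0.56 and -0.32, against -0.50 without HG3. MCM8 and DSCC1 had the largest changes in MDA-MB-175, DNA2 and MCM8 in ZR-75-30, and TICRR and RECQL4 in HCC1500 with or without HG3. Among all tested genes 13.7%, 22.7% and 13% were called lower and 11.9%, 23.4% and 7.46% higher in the 3 lines. In HCC1500 without HG3 the shares were 37.7% and 20.9%. Of 14 RB, DREAM and other E2F genes, 3 were called lower and 0 higher in MDA-MB-175, 7 lower and 4 higher in ZR-75-30, and 5 lower and 3 higher in HCC1500. These counts and those of the ligase genes are few, and nothing is read from them against the shares of all genes. MYBL2 had the largest change of that list in each line (-0.34, -1.24 and -1.38). Of 9 genes of the ubiquitin ligases that act on licensing factors or of their regulators, 3, 4 and 3 were called lower and 1, 2 and 0 higher in the 3 lines. FBXO5, which encodes the inhibitor EMI1, had the largest change of that list in each (-0.54, -1.51 and -0.89), but in HCC1500 without HG3 CKS1B did (-1.02, against -0.91). Without HG3, 9 of the RB and E2F genes were called lower and 3 higher in HCC1500, and 6 of the ligase genes lower and 3 higher.

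Mitosis genes differed from the replication genes in how the lines ranked. Of 25 mitosis genes 24, 25 and 25 were called lower in the 3 lines, with medians of -0.48, -0.77 and -1.54. In ZR-75-30 the median of the 52 members lay lower (-0.97) than that of the mitosis genes, and in HCC1500 higher (-0.76, or -0.82 without HG3 against -1.55). The order in ZR-75-30 depended on the list, as the 29 other replication proteins had a median of -0.56 there, above the mitosis genes. The largest changes of that list were those of CENPE and PLK1 in MDA-MB-175, BUB1B and BIRC5 in ZR-75-30, and KIF20A and MKI67 in HCC1500 (KIF20A and AURKB without HG3). The lists were compared as descriptions, with no test between them.

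Levels at low glucose were compared to see how the lines stood in the control condition. The lines differed for most genes and for most members. ZR-75-30 was higher than MDA-MB-175 for 18 members and lower for 22, with 12 not called (73.1% of all genes were called in either direction). HCC1500 was higher than MDA-MB-175 for 19 and lower for 27 (80.6% of all genes called), and higher than ZR-75-30 for 20 and lower for 28 (80.4%). By mean value 16 members were highest in HCC1500, and 18 in each of the other lines. The scaling between lines mattered here. The median difference over all genes between ZR-75-30 and MDA-MB-175 was -0.18 on the deposited scale, -0.10 with median-of-ratios factors and -0.30 on a CPM scale, and 14 members changed sign between them. Of the calls between these lines, 60.6% were lower on the deposited and 71.3% on the CPM scale. Called in the same direction under all 3 scalings were 16 members higher and 20 lower in ZR-75-30 than in MDA-MB-175, 17 and 20 in HCC1500 than in MDA-MB-175, and 17 and 18 in HCC1500 than in ZR-75-30. The share of all genes called alike under all 3 scalings was not counted, so nothing is read from these counts about the members.

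Some of these were large. For E2F7 the log2 difference was -1.58 in ZR-75-30 against MDA-MB-175, and HCC1500 was higher than ZR-75-30 by 1.999 on the log2 scale. CCNE1 was lower in HCC1500, at a mean of 24.6 against 143 in MDA-MB-175 and 96.5 in ZR-75-30. CDK2, its kinase partner, was higher there, at 601 against 273 and 264. PCNA stood at 2453 in ZR-75-30, 1767 in MDA-MB-175 and 731 in HCC1500. CDT1 was lowest in ZR-75-30, the line in which it was not called lower, at 68.6 against 109.7 and 155. CDC25A did not differ detectably between MDA-MB-175 and ZR-75-30 at low glucose (139.8 and 139), while its fall was larger in ZR-75-30. Each named difference kept its sign under the 3 scalings, except those of CDK2 and CDC25A between ZR-75-30 and MDA-MB-175.

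**Figure D5:**
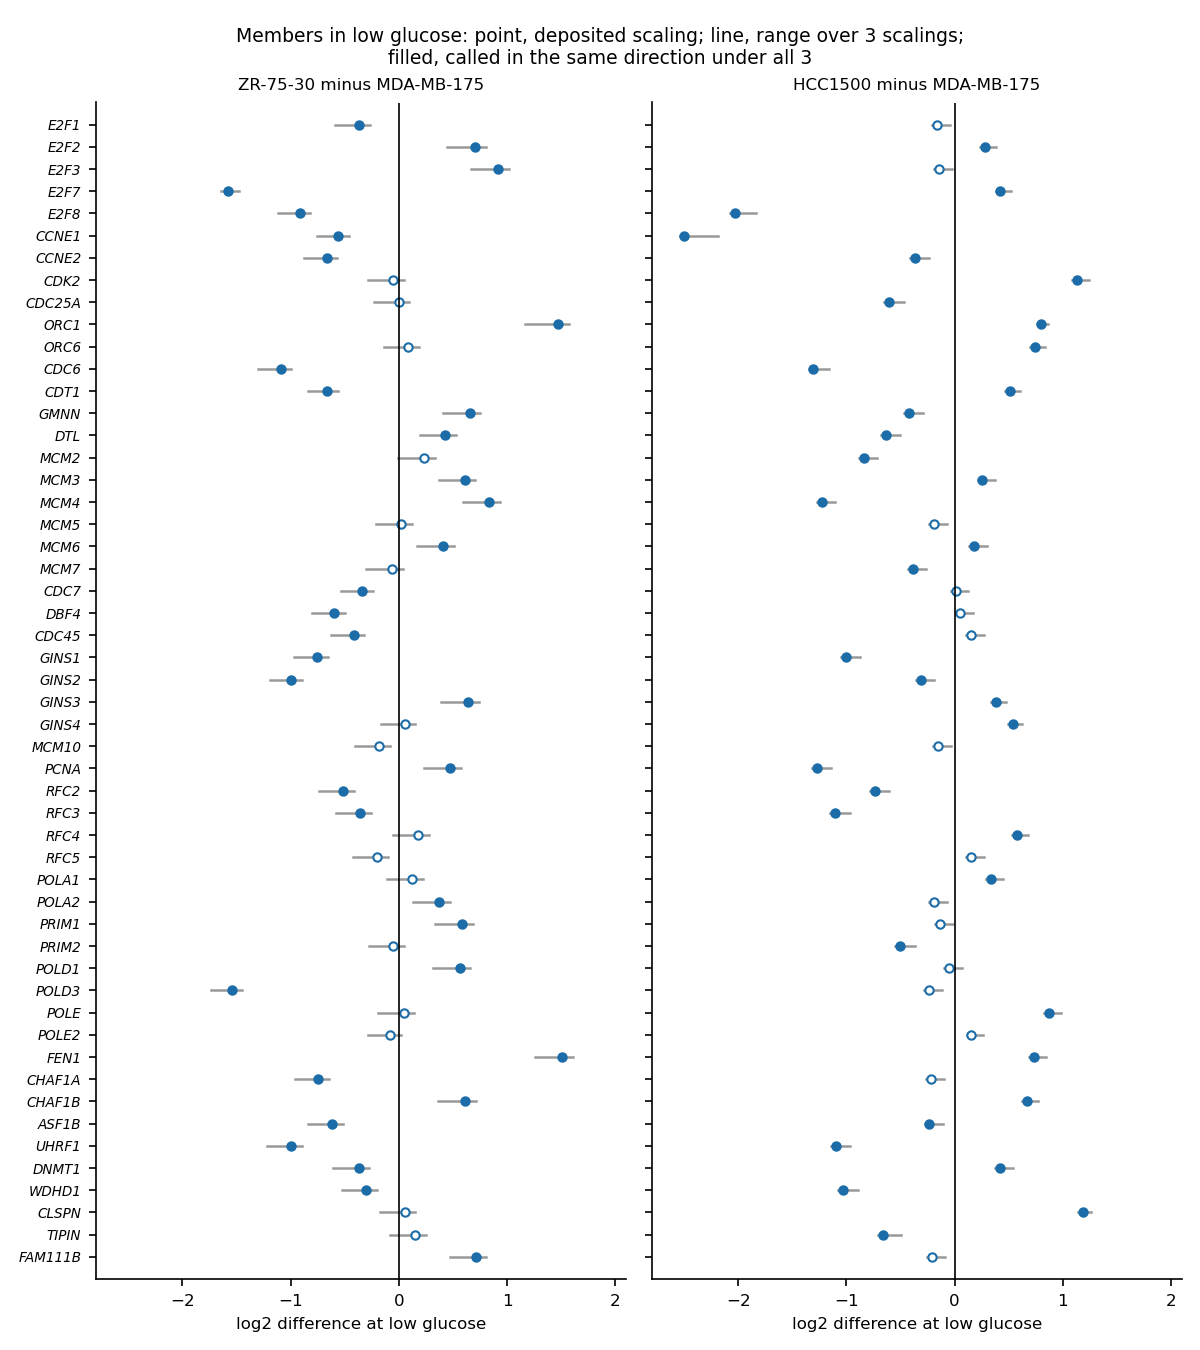
Log2 difference at low glucose of the 52 members in ZR-75-30 minus MDA-MB-175 (left) and HCC1500 minus MDA-MB-175 (right), with points for the deposited scale, lines for the range over 3 scalings and filled points for differences called in the same direction under all 3. The filled points lie on both sides of 0 in each panel.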

How the data were processed

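RNA-Seq values of 24 cultures came from a table in which the authors deposited a normalized signal per gene. In every sample all values were whole multiples (tolerance 0.01) of 1 factor, so reads were recovered. The study's methods describe CPM with TMM factors from edgeR for its tumors, and the heading of that section includes cultured cells. Totals here ran from 5559394 to 7594840 per sample and are not those of CPM, so how the factor of this table was set is not given in the sources used here, and the values were not raw counts. The submitters' processing notes name hg38 and edgeR. The counting strand is not given in the sources used here, and 16 of 51 matched members share exon bases with other coding genes.

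Values were transformed to log2(value + 1), so changes of low genes are understated. Genes at 0.5 or more in at least 4 fitted samples were tested with limma 3.58.1 (R 4.3.3, intensity trend) on the 8 cultures of each line, with Benjamini-Hochberg adjustment over all genes and a call at adjusted p under 0.05. Differences in response used all 24 cultures, and low glucose levels the 12 low glucose cultures. Alternatives included other pseudocounts, filters and scalings, edgeR 4.0.16 and DESeq2 1.42.0 on the recovered reads, and leaving out each culture. The scripts were tested on simulated data.

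The members, lists and alternatives were chosen with earlier results of these data known. Named genes were E2F1, CCNE2, CDC6, CDT1, MCM2, MCM10 and PCNA, the members of each role with the largest and smallest mean size of change, any member called higher, and the member with the largest response difference for each pair of lines. Genes outside this rule were named after their values were seen. Promoters came from RefSeq (GRCh38.p14), where 44 of 52 members matched by symbol, and exon lengths from a GENCODE annotation lifted to GRCh37, used for lengths and overlaps only. Detection floors cover counting error only.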

Additional observations from a re-analysis of the deposited data

Results flagged for a closer look

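In 12 of 162 groups of 4 cultures examined (27 named members in 6 groups) the highest or lowest culture stood apart by Dixon's test at the 95% level, which chance alone gives in about 1 group in 20. High glucose HCC1500 held 8 of the 12. In 6 of these HG3 was the highest culture, at 451.5 for E2F1, 184.2 for CDT1, 413.6 for MCM5, 1160 for MCM7, 914.1 for PCNA and 254 for CHAF1A. In the same group the lowest culture stood apart for CDK2 (310.9) and CDC25A (47.54). The other 4 were CDK2 in high glucose MDA-MB-175 with a lowest value of 223.3, DBF4 in low glucose MDA-MB-175 with a highest value of 250.8, DBF4 in low glucose HCC1500 with a lowest value of 227.4, and MCM10 in low glucose HCC1500 with a highest value of 229.9.

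The glucose change differed between the 3 lines for 23 of the 27 named members by limma's F test over 24 cultures, where 29.3% of all genes differed. Some of the 27 were named for a large response difference, so this count is partly set by that choice. The adjusted p was 0.01204 for E2F1, 1.29e-05 for E2F2, 0.006124 for E2F7 and 0.0002089 for E2F8. Among cyclin E kinase genes it was 0.001336 for CCNE2, 2.904e-06 for CDK2 and 1.721e-07 for CDC25A. For the licensing genes CDC6 and DTL it was 4.047e-08 and 7.713e-08. Helicase genes had 0.01912 (MCM2), 0.03969 (MCM5), 0.03715 (MCM7), 0.00182 (CDC45) and 2.855e-05 (MCM10). Clamp and polymerase genes had 0.0007451 (PCNA), 3.106e-05 (RFC3), 5.659e-06 (POLA1) and 5.81e-05 (PRIM1). The remaining values were 0.008947 for CHAF1A, 9.972e-07 for UHRF1, 0.001919 for CLSPN, 0.01163 for TIPIN and 9.05e-11 for FAM111B.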

How the results depend on the processing

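No alternative called a member higher in a single line. Of the gene-level values under the alternatives, 3332 kept their direction and call, 53 gained a call, 83 lost one and 16 turned sign. With the spread estimated over all 24 cultures, HG3 included, 20 members were called lower in MDA-MB-175 and 2011 genes in all, against 37 and 4368, and 5842 genes were called in HCC1500 against 3350. A threshold of 0.5 on the log2 change left 3 members in MDA-MB-175. Leaving out 1 culture at a time gave 2015 to 9504 called genes in HCC1500, with 9504 without HG3, and the members whose fall was larger in HCC1500 than in MDA-MB-175 reached 45 without HG3. The median of the members in HCC1500 without HG3 was -0.70 with median-of-ratios factors, edgeR and DESeq2. Signs turned for 3 uncalled values. E2F3 in MDA-MB-175 was at 0.010 with median-of-ratios factors, 0.023 in edgeR and 0.016 in DESeq2, and from -0.079 to 0.036 with 1 culture left out. PRIM1 in MDA-MB-175 was at 0.0038 with median-of-ratios factors, and from -0.042 to 0.018. TIPIN in HCC1500 was at 0.026, 0.020 and 0.037 with median-of-ratios factors, edgeR and DESeq2, and from -0.23 to 0.095. The causes were not tested. Labels number the replicates alike in both conditions, but same-numbered cultures did not deviate together (mean correlation 0.04, 0.01 and 0.02 in the 3 lines), so the block was an alternative only. With the replicate block 39, 51 and 38 members were called lower, and 1964 genes in HCC1500. Depth limits calls of genes near the floor of 0.953 to 2.29, and the lowest value of a member was 6.85 (E2F7).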
